A study of Homo sapiens with 6 samples.

Results

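The cytosolic ribosomal protein genes are the genes for the protein components of the ribosome outside mitochondria. Members were the rows of the deposited count table named RPL or RPS followed by a number (with an A, X, L, L1 or AL ending allowed), together with RPLP0, RPLP1, RPLP2 and RPSA, and rows with pseudogene names were left out. This gave 85 of the 33451 genes in the table, 33 for the small (40S) and 52 for the large (60S) subunit, among them RPS10L, which RefSeq lists as a pseudogene. MDA-MB-453, an established human breast cancer cell line, was cultured for 5 days with 100 nM 25(OH)D, the main circulating vitamin D metabolite, or with alcohol as the solvent. There were 3 libraries of stranded mRNA sequencing in each group, all from this cell line, and the 2 groups differed by no labelled factor other than 25(OH)D. The methods call the replicates biological without saying what was cultured or extracted separately, so the p-values below measure the spread between these libraries.

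Ribosomes translate mRNA into protein. The small subunit reads the codons, and the large subunit joins the amino acids and lets the new chain leave through an exit tunnel. Each protein is needed in about equal amounts, and most ribosomal protein mRNAs start with a C followed by a run of C and T (U in the RNA), the 5′ terminal oligopyrimidine (TOP) motif, through which mTOR and LARP1 control their translation and stability.

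Most ribosomal protein mRNAs were lower in the cells cultured with 25(OH)D, each by a small amount. Of the 82 members with enough counts to be tested, 61 fell at an adjusted p under 0.05, while 16.5% of the 18183 genes tested fell at that threshold. Only 1 member, RPL10A, passed the threshold as higher, beside 17.3% of all genes tested. The fitted log2 fold change was under 0 for 80 of the 82 members and for 51.3% of all genes tested. The median log2 fold change of the members was -0.23, with quartiles of -0.31 and -0.16, and that of all genes tested was -0.01. No member moved past a log2 fold change of 1 with an unadjusted p under 0.05, a limit that 6.65% of all genes passed. At that limit the count of 0 from edgeR stayed at 0 with DESeq2, and without the low-count filter it became 1 (RPS10L, described with the members not tested).

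The total counts per library were between 33268860 and 40928176. Levels are given in CPM, the counts of a gene relative to the library total after adjustment by TMM factors, which align the libraries through the bulk of their genes, and 3 counts, taken as the floor, were worth 0.0720 to 0.0921 CPM. Replicates were different libraries, since their counts over the members differed by 5.85 to 25.3 times the counting noise (chi-square per degree of freedom). This takes counts as independent, so the ratio would be smaller if both mates of a pair were counted. All 7 markers of the cell line checked (FOXA1, ERBB2, KRT8, KRT18, KRT19, SPDEF and XBP1) were present. They summed to 11367 to 11684 CPM in control and 8914 to 9128 CPM with 25(OH)D. XBP1, at 5311 to 8070 CPM over all libraries, made up most of this sum, which does not describe each marker. ESR1 and PGR, which this cell line lacks, had at most 4 and 8 counts. Of 6 fibroblast, 4 leukocyte and 3 endothelial markers, COL1A1 stood at 32 to 38.5 CPM, COL3A1 and CDH5 were not analysed here, and each of the others had at most 16 counts in a library.

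Sequences at the transcription start are shown first, since the TOP motif is the feature that these genes share and that the choice of members did not use. The members had an entry in the RefSeq promoter table (GRCh38.p14) in 67 of 85 cases. In 52 of these 67, or 77.6%, a C followed by at least 4 further C or T started within 5 bases of the annotated start, against 21.1% of all 27305 promoters in the table. The longest run of C and T touching the 10 bases on either side of the start had a median of 11 bases in the members, with a range of 2 to 25, and a median of 4 in all promoters. The windows below hold 30 bases on the transcribed strand, 5′ to 3′, with the annotated first base of the transcript as the 16th, and capitals mark that run of C and T (the first, where runs tie). The genes shown are examples. RPL13, with a log2 fold change of -0.41 and a longest run of 4 bases near the start, is not among them. The first 6 windows belong to members that fell and the next 3 to RPL10A, RPL36AL and RPLP0, which did not fall. The last belongs to RPL7L1, a paralog that did not pass the test.
RPL13A (chr19:49487593-49487622, + strand): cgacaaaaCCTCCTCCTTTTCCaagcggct
RPL14 (chr3:40457324-40457353, + strand): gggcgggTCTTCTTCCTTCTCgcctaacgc
RPL34 (chr4:108620561-108620590, + strand): aaaggCTTTTTTCTTCCTCTTCCggggacg
RPS23 (chr5:82278340-82278369, - strand): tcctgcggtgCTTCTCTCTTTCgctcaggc
RPS21 (chr20:62387088-62387117, + strand): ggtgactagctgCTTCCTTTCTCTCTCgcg
RPS4X (chrX:72277234-72277263, - strand): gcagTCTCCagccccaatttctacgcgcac
RPL10A (chr6:35468386-35468415, + strand): tgcgcaagacatgctagTCTCTTTTCCggt
RPL36AL (chr14:49620612-49620641, - strand): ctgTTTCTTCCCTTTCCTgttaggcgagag
RPLP0 (chr12:120201097-120201126, - strand): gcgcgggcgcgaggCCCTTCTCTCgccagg
RPL7L1 (chr6:42879601-42879630, + strand): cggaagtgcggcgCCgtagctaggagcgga
Runs of 10 to 18 bases covered the annotated start of 5 of the genes that fell and of RPL36AL and RPLP0 alike. The run of RPL10A, of 10 bases, began just after the annotated start. RPS4X, which fell, had runs of at most 5 bases near the start, of which the marked one lies before it.

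The 52 members with such a start had a median log2 fold change of -0.26, and 41 of them fell. The 15 members with an entry but without it had a median of -0.18, and 9 fell. Among the 10407 tested genes with a promoter entry that are no members, 2304 had such a start. Their median log2 fold change was -0.01, and 20.6% of them fell. The 16.5% of all genes tested that fell also covers genes without an entry. Other letters searched on both strands of the 300-base promoters (250 bases before and 50 after the start) were GGGCGG, the core of the Sp1 motif, in 53.7% of members and 44.6% of all promoters, CCGGAAG, an ETS motif, in 34.3% and 10.7%, and GATGGC, which overlaps the YY1 motif, in 26.9% and 13.0%. With CCGGAAG 20 of 23 members fell and without it 30 of 44 (median log2 fold changes -0.27 and -0.19). With GATGGC 9 of 18 fell and without it 41 of 49 (-0.21 and -0.23), and with GGGCGG 27 of 36 and without it 23 of 31 (-0.26 and -0.22). Of the tested genes that are no members, 18% of those with the ETS motif fell, 19.1% of those with the YY1 letters and 19.8% of those with the Sp1 core. These matches describe letters in a window, and no binding was measured.

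In control the members together took 1.61%, 1.64% and 1.68% of all counts per library, and with 25(OH)D they took 1.37%, 1.34% and 1.30%. All 3 libraries with 25(OH)D were below all 3 control libraries. The mean share was 1.64% ± 0.0370 (SD, n = 3) in control and 1.34% ± 0.0382 (SD, n = 3) with 25(OH)D, a decrease by 18.7% with p = 0.1 in a two-sided exact permutation test, the smallest p that 3 against 3 libraries allow. The 95% Wilson interval of each share, which takes counts as independent, was at most 0.00834 percentage points wide and covers counting error only. Large subunit genes went from 1.26% ± 0.0300 to 1.02% ± 0.0281 of all counts and small subunit genes from 0.383% ± 0.00708 to 0.315% ± 0.0101 (SD, n = 3 each). Small subunit genes made up 23.4%, 23.2% and 23.2% of the members' counts in control and 23.7%, 23.5% and 23.5% with 25(OH)D, so the balance between the subunits moved by 0.264 percentage points (exact permutation p = 0.1). The share of mitochondrially encoded genes was 7.85% to 7.99% in control and 8.89% to 9.24% with 25(OH)D. With these genes left out of the total, the members' share still went from 1.79% to 1.47%. These are shares of mRNA in bulk cells. Less mRNA per cell, fewer cells that hold it and a rise of other mRNAs cannot be told apart in them.

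**Figure D1:**
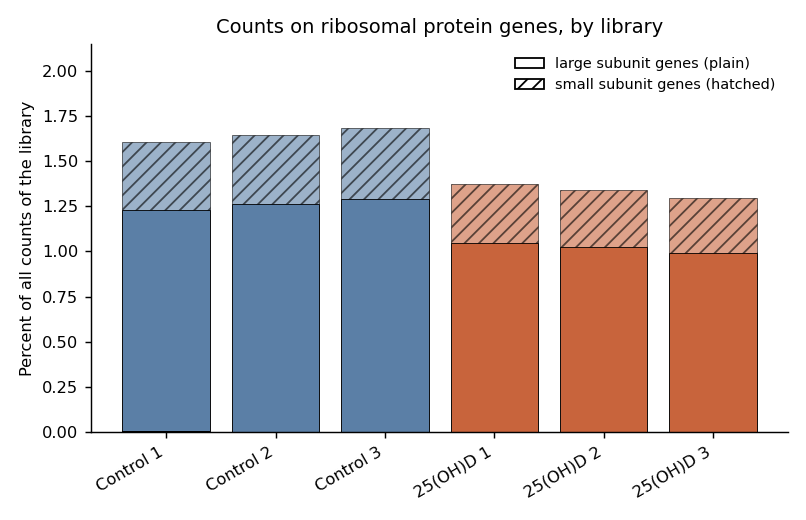
Percent of all counts on ribosomal protein genes in each library (bars from 0, 3 control and 3 25(OH)D libraries), with large subunit genes in plain colour and small subunit genes hatched above them. The control libraries reach 1.61% to 1.68% and the 25(OH)D libraries 1.30% to 1.37%.

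The shift ran through the members rather than resting on a few abundant ones. In each library the median over the 82 tested members of log2 CPM minus the control mean of the gene was -0.05, -0.0034 and 0.05 for control 1, 2 and 3 and -0.19, -0.26 and -0.27 for the libraries with 25(OH)D. Of the 82 members, 75, 78 and 79 were below their control mean in the 3 libraries with 25(OH)D, and 62, 46 and 20 in the 3 control libraries. The control libraries thus had an offset among themselves in the members, with the first low and the third high, that was smaller than the gap to the libraries with 25(OH)D. In 60 members all 3 libraries with 25(OH)D were below all 3 control libraries, and 22.9% of all genes tested did the same. RPL10A was the only member that did not overlap in the other direction, beside 22.8% of all genes.

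**Figure D2:**
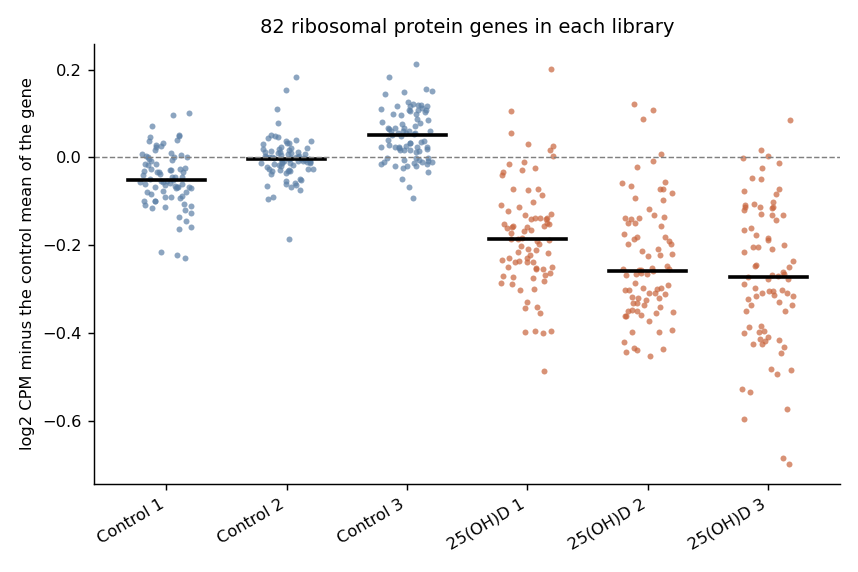
Each point is 1 of the 82 tested ribosomal protein genes in 1 library, as log2 CPM minus the mean log2 CPM of that gene in the 3 control libraries, and the bars are medians over genes. The medians are -0.05 to 0.05 in control and -0.19 to -0.27 with 25(OH)D.

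The log2 fold changes of the members lay between -0.48 and 0.13, with an SD of 0.120 over the 82 members, and standard errors between 0.0338 and 0.149. Over all genes tested, which include genes of lower counts, the SD was 0.716. Over the members the Spearman correlation of the log2 fold change was -0.25 with the log2 CPM in control, -0.05 with the length of the principal transcript, 0.11 with its GC content and, over the 67 members with a promoter entry, -0.22 with the length of the C and T run. These are descriptions across genes that share libraries, and none of these features ordered the members closely.

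**Figure D3:**
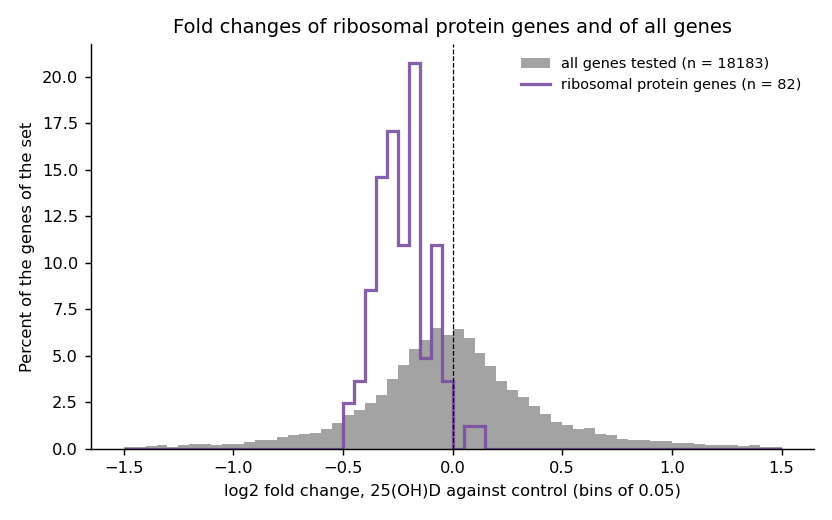
Histogram of log2 fold changes, 25(OH)D against control, in bins of 0.05, as percent of the set, for the 82 tested ribosomal protein genes (purple outline) and for all 18183 genes tested (grey). The members lie between -0.48 and 0.13 with a median of -0.23, and 3.23% of all genes lie outside the axis range.

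In the large subunit 39 of 50 tested genes fell and 1 rose, with a median log2 fold change of -0.22. Beside these counts and those of the groups below, 16.5% of all genes tested fell and 17.3% rose at the same threshold. RPL13A, which besides its place in the ribosome serves in a complex that silences translation after interferon, had the largest fitted fall of all members. Its control libraries stood at 680, 644 and 617 CPM, and those with 25(OH)D at 491, 473 and 428 CPM. The groups did not overlap, and the log2 fold change was -0.48 ± 0.050 (SE, edgeR adjusted p = 3.55e-06). RPL13A (chr19:49487554-49492308, GRCh38) shares 22.7% of the 100-base stretches of its principal transcript with other genes. Its pseudogene RPL13AP5 had the most matches among them, so some reads of RPL13A could be counted elsewhere.

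RPL5 and RPL11 bind the 5S ribosomal RNA, and the same particle holds the ubiquitin ligase MDM2 when ribosome assembly is disturbed. RPL5 stood at 1088, 1082 and 1073 CPM in control and 822, 801 and 746 CPM with 25(OH)D, without overlap, a log2 fold change of -0.45 ± 0.0379 (edgeR adjusted p = 3.88e-07). It had the smallest p of all members and, with the transcript lengths used here, the highest level per kilobase of principal transcript. RPL11 stood at a mean of 114 ± 8.85 CPM in control and fell to 95.7 ± 3.37 CPM (SD over 3 libraries), which is -0.26 on the log2 scale. MDM2 itself was at 81.0 and 85.5 CPM and did not pass the test (log2 fold change 0.08, edgeR adjusted p = 0.232).

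RPL13, RPL14, RPL7 and RPL34, further proteins of the 60S subunit, fell by similar amounts. RPL13 went from 79.5, 77.5 and 81.4 CPM in control to 56.8, 61.9 and 60.3 CPM with 25(OH)D (log2 fold change -0.41 ± 0.0508, edgeR adjusted p = 1.88e-05). RPL14 went from 476, 518 and 538 CPM to 399, 381 and 391 CPM (log2 fold change -0.39 ± 0.0444, edgeR adjusted p = 9.36e-06). In both genes every library with 25(OH)D was below every control library. The log2 fold changes were -0.39 for RPL7 and -0.37 for RPL34, again without overlap. RPL7 shares 60.5% of its 100-base stretches with other genes, and RPL34 0.265%.

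Around the exit tunnel, 6 of 7 genes fell, with a median log2 fold change of -0.26. RPL19, which also bridges to the small subunit, went from 493, 482 and 497 CPM to 406, 389 and 368 CPM (log2 fold change -0.34 ± 0.0402, edgeR adjusted p = 1.28e-05). RPL23A, a docking site for factors that meet the new chain, went from 1341, 1447 and 1572 CPM to 1274, 1181 and 1284 CPM (log2 fold change -0.22 ± 0.0510, edgeR adjusted p = 0.00356). The groups did not overlap in either gene, though the control libraries of RPL23A were spread over a wider range than its fall. RPL39, the seventh, was at 15.5, 16.4 and 17.3 CPM in control and 16.1, 14.2 and 15.9 CPM with 25(OH)D, with overlap, and did not pass the test (log2 fold change -0.10, edgeR adjusted p = 0.413). RPL3 and RPL10, which lie near the centre where amino acids are joined, fell by 0.20 and 0.18 on the log2 scale. The call of RPL10 (edgeR adjusted p = 0.0142) was lost without the control library 2 (0.0553), without the control library 3 (0.0509) and without the 25(OH)D library 3 (0.0742, log2 fold change -0.11).

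The P stalk recruits and activates translation factors, and 2 of its 4 genes fell, with a median log2 fold change of -0.15. RPLP0, the stalk base, stood at 262, 248 and 249 CPM in control and 254, 249 and 233 CPM with 25(OH)D. The groups overlapped, and the log2 fold change of -0.05 ± 0.0427 did not pass the test (edgeR adjusted p = 0.455). RPL12, which sits beside it, went from 369, 386 and 377 CPM to 331, 333 and 306 CPM without overlap (log2 fold change -0.22 ± 0.0408, edgeR adjusted p = 0.000650). RPLP1, one of the acidic proteins on the stalk, fell from 143 ± 9.30 to 126 ± 2.01 CPM (log2 fold change -0.18, edgeR adjusted p = 0.00973), and this call was lost without the control library 3 (0.0632). RPLP2, its partner, had a log2 fold change of -0.12 that did not pass (edgeR adjusted p = 0.0817), but passed without the control library 1 (0.0316), with library sizes alone (0.0162), with upper-quartile factors (0.0282) and on both RPKM scales (0.0476 and 0.0483). RPLP0 is often used as a reference gene in qPCR. As a ratio to RPLP0, 42 of the other 81 tested members were lower in every library with 25(OH)D than in every control library, and 2 were higher, beside 16.8% and 24.9% of all genes tested under the same ratio, which was added after the data were seen.

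In the small subunit 22 of 32 tested genes fell and none rose in the edgeR test, with a median log2 fold change of -0.23. Both an unadjusted p under 0.05 and DESeq2 likewise gave 0 higher. RPS15A went from 146, 150 and 151 CPM in control to 117, 114 and 100 CPM with 25(OH)D, without overlap (log2 fold change -0.43 ± 0.0546, edgeR adjusted p = 2.43e-05). RPS23, which lines the decoding centre, went from 128, 130 and 134 CPM to 108, 101 and 90.7 CPM, also without overlap (log2 fold change -0.39 ± 0.0573, edgeR adjusted p = 0.000112). RPS4X, the X-linked gene for a protein of the subunit body, went from 196, 201 and 194 CPM to 162, 155 and 146 CPM (log2 fold change -0.35 ± 0.0444, edgeR adjusted p = 2.37e-05). It shared none of its 100-base stretches with another gene.

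RPS21 was a weaker case. It was read at 11.3, 14.3 and 14.3 CPM in control and 11.9, 10.4 and 8.22 CPM with 25(OH)D, so the groups overlapped, and the log2 fold change was -0.38 ± 0.131 (edgeR adjusted p = 0.0372). The call was lost without the control library 2 (0.147) or 3 (0.122), without the 25(OH)D library 2 (0.0884) or 3 (0.155, log2 fold change -0.24), with the replicate block (0.0559) and on the RPKM scale with 1 (0.0708) or 0.1 added (0.0690). RPS24 and RPL28, named after their values were seen, were the other members called lower whose groups overlapped. RPS29 and RPL7L1, named in the same way, were the members whose libraries with 25(OH)D were all below the control libraries but that did not pass the test.

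Among the 14 genes of the 40S head, 8 fell, with a median log2 fold change of -0.19. RPS3, which lies at the channel where mRNA enters, went from 295, 289 and 299 CPM to 246, 242 and 231 CPM without overlap (log2 fold change -0.30 ± 0.0381, edgeR adjusted p = 2.70e-05). RPSA, on the back of the subunit and also known as a laminin receptor, was at 238, 230 and 226 CPM in control and 227, 222 and 206 CPM with 25(OH)D, and did not pass (log2 fold change -0.08 ± 0.0435, edgeR adjusted p = 0.173), though it passed with library sizes alone (0.0408) and upper-quartile factors (0.0462). RPSA shares 50.4% of its 100-base stretches with other genes, among which RPSAP58 had the most matches. Of a list of 11 members whose mutations cause Diamond-Blackfan anaemia, an inherited failure of red cell production, 8 fell, with a median log2 fold change of -0.25. The list does not hold all such members. On the X chromosome 3 of 4 members fell.

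**Figure D4:**
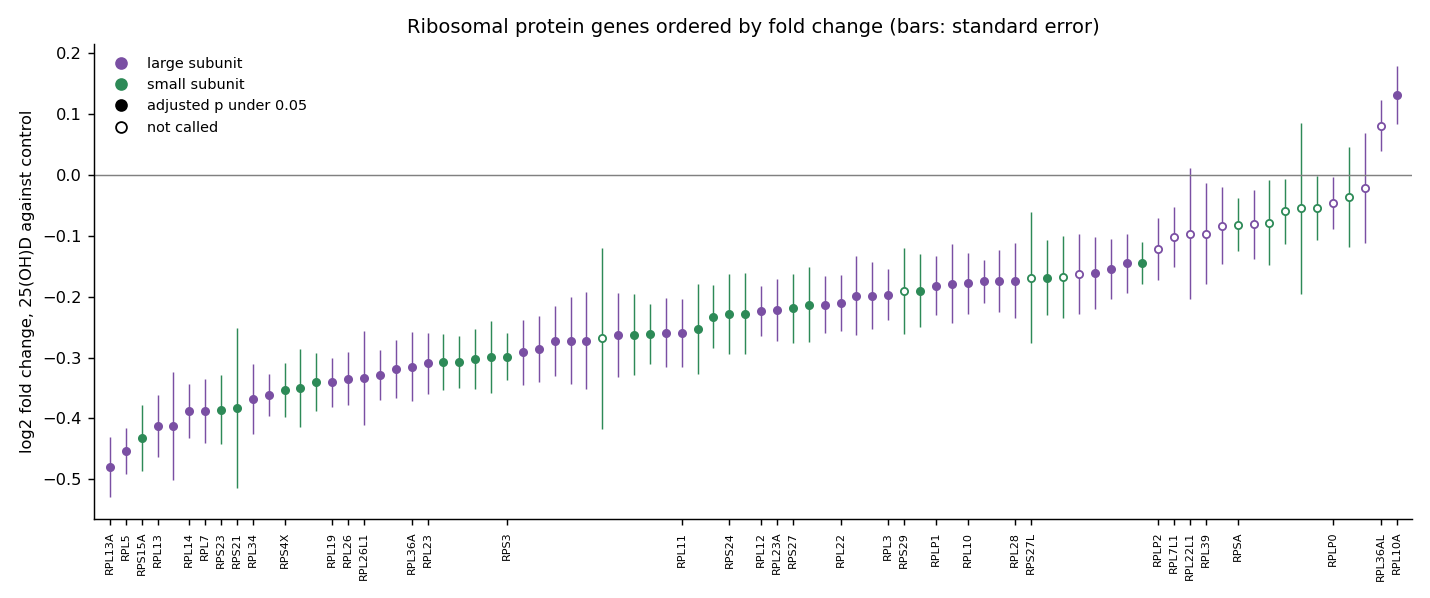
Log2 fold change, 25(OH)D against control, of the 82 tested ribosomal protein genes in ascending order, with bars of 1 standard error from edgeR. Filled points passed an adjusted p of 0.05, open points did not, purple is the large and green the small subunit, genes described in the text are labelled, and 80 of the 82 points lie under 0.

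RPL10A and RPL36AL were the members with a fitted change above 0. RPL10A, the protein of the mobile L1 stalk from which used tRNA leaves the ribosome, stood at 82.6, 78.8 and 80.1 CPM in control and 92.5, 86.7 and 85.4 CPM with 25(OH)D. The groups did not overlap, and the log2 fold change was 0.13 ± 0.0482 (edgeR adjusted p = 0.0494). This call was lost without the control library 2 (0.149) or 3 (0.0901), without the 25(OH)D library 1 (0.179) or 2 (0.0757), and in 8 of the 13 alternatives with all libraries, among them TMM factors computed without the members (0.0518). RPL36AL was at 461, 441 and 482 CPM in control and 496, 501 and 466 CPM with 25(OH)D, with overlap. Its log2 fold change of 0.08 ± 0.0421 did not pass the test (edgeR adjusted p = 0.161), but passed without the 25(OH)D library 3 (0.0421).

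RPL36AL carried the highest deposited RPKM of all members (counts scaled to the length of the gene and to the total of the library). Its mean RPKM was 627 in control and 644 with 25(OH)D. Next came RPL23A at 522 and 434, RPL5 at 379 and 269, RPL13A at 277 and 193 and RPL19 at 210 and 161 RPKM, each in control and with 25(OH)D. The gene length in the deposited table joins all exons of a gene, which lowers the RPKM of genes with rare long exons. Per kilobase of one principal transcript, RPL5 came first with a mean of 1051 CPM per kilobase in control. RPL23A followed with 930 and RPL19 with 665, and RPL36AL was the fifth with 618. Where the annotation ranked transcripts of a gene alike, the longest was taken. The length used was 7686 bases for RPL37, 7072 for RPL14, 1562 for RPL23A and 1028 for RPL5. This order therefore still depends on the transcript chosen.

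Some ribosomal proteins have a second gene for a closely related paralog, and 5 of 8 such pairs could be compared as the share of the paralog in the counts of the pair. RPL36AL made up 68.9%, 65.9% and 66.4% of the counts of RPL36A and RPL36AL in control and 72.0%, 74.5% and 72.0% with 25(OH)D, without overlap. The mean rose from 67.1% ± 1.6 to 72.8% ± 1.44 (SD, n = 3 each), with p = 0.1 in the exact permutation test and 0.25 after Benjamini-Hochberg adjustment over the 5 pairs, where no p under 0.05 is possible. RPL36A itself fell from 226 ± 17.9 to 182 ± 10.5 CPM (log2 fold change -0.31, edgeR adjusted p = 0.000600). RPL36A overlaps the readthrough row RPL36A-HNRNPH2 on the same strand, which moved by a log2 fold change of -0.26, and the part of shared reads in the share was not tested.

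RPL7L1 made up 19.1%, 19.0% and 17.9% of the counts of RPL7 and RPL7L1 in control and 21.3%, 22.9% and 21.5% with 25(OH)D, also without overlap (means 18.7% ± 0.642 and 21.9% ± 0.874, exact permutation p = 0.1, adjusted 0.25). RPL7L1, a protein of ribosome assembly more than of the finished ribosome, had a log2 fold change of -0.10 that did not pass (edgeR adjusted p = 0.137) but passed with library sizes alone (0.0348) and upper-quartile factors (0.0408), beside -0.39 for RPL7. The remaining pairs overlapped between the groups. RPL26L1 made up a mean of 14.2% of its pair in both groups (exact permutation p = 1), and RPL26 and RPL26L1 each fell by 0.33 on the log2 scale. RPL22L1 went from 1.42% to 1.53% of its pair (exact permutation p = 0.2) and RPS27L, a p53 target, from 14.7% to 15.2% (p = 0.7 in the same exact test). RPL22 and RPS27 fell, with log2 fold changes of -0.21 and -0.22, while RPL22L1 and RPS27L, at -0.10 and -0.17, did not pass. The call of RPS27 was lost without the 25(OH)D library 2 (edgeR adjusted p = 0.0626).

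**Figure D5:**
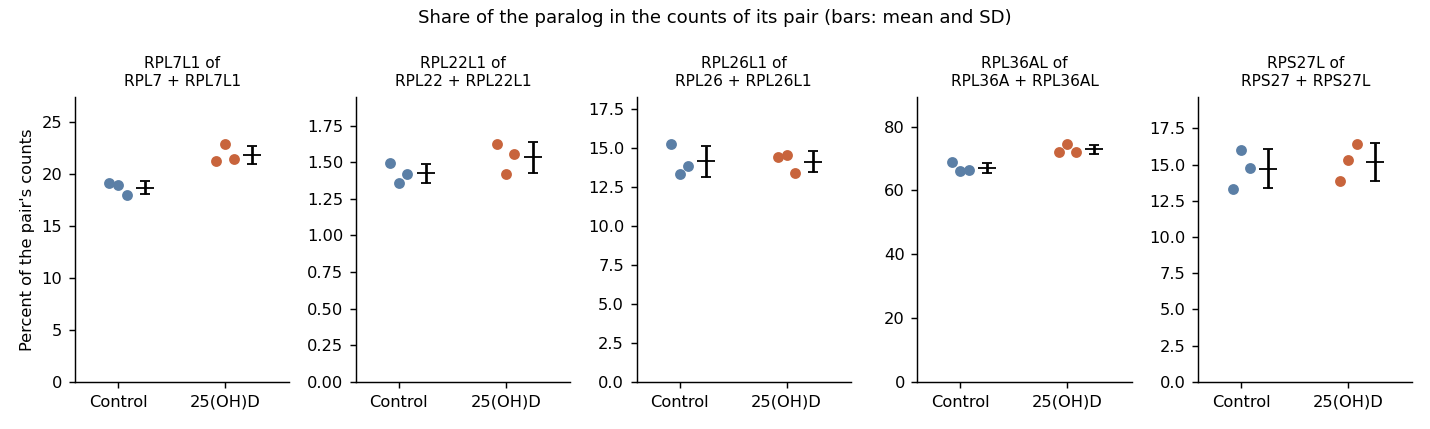
Counts of the paralog as a percent of the counts of its pair in each library (points), with the mean and SD of each group (bars), axes from 0. RPL36AL and RPL7L1 took a larger share in all 3 libraries with 25(OH)D than in all 3 control libraries, and the shares of RPL22L1, RPL26L1 and RPS27L overlapped.

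The members not tested had few counts. RPL3L, the muscle form of RPL3, had 4, 4 and 0 counts in control and 0, 0 and 3 with 25(OH)D, and RPL39L, a testis form of RPL39, had 0, 4 and 4 and 0, 4 and 0. RPS10L had 10, 17 and 17 counts in control and 0, 10 and 5 with 25(OH)D, was left untested by the low-count filter, and is annotated as a pseudogene, RPS10P5, in RefSeq, although its name in the table meets the rule. RPL10L, the eighth paralog of the pairs, was not analysed here.

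Of the ribosomal proteins whose names fall outside the rule, RACK1 and FAU were examined. RACK1, a scaffold on the 40S head, stood at 82.6, 87.9 and 78.0 CPM in control and 65.0, 64.1 and 65.6 CPM with 25(OH)D, without overlap (log2 fold change -0.35 ± 0.0525, edgeR adjusted p = 0.000116). FAU, made as a fusion of a ubiquitin-like protein with a 40S protein, was at 97.8, 103 and 101 CPM in control and at 104, 102 and 103 CPM with 25(OH)D. The groups overlapped, and FAU did not pass the test (log2 fold change 0.04, edgeR adjusted p = 0.564).

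Other mRNAs known to carry the TOP motif moved with the ribosomal protein mRNAs in part. Of 18 such genes, all tested, 11 fell and 1 rose, with a median log2 fold change of -0.25. Among all genes tested, 16.5% fell and 17.3% rose. HNRNPA1, an RNA-binding protein of splicing, went from 2807, 2888 and 3054 CPM to 2114, 2047 and 2114 CPM (log2 fold change -0.48 ± 0.0352, edgeR adjusted p = 9.70e-08). The elongation factors EEF1A1 and EEF2 both fell, with log2 fold changes of -0.26 each, from 1730 ± 30.7 to 1448 ± 33.8 and from 1498 ± 36.6 to 1247 ± 27.7 CPM. PABPC1, the poly(A)-binding protein and itself a TOP mRNA, rose from 1190, 1216 and 1262 CPM to 1536, 1478 and 1491 CPM, without overlap (log2 fold change 0.30 ± 0.0337, edgeR adjusted p = 8.61e-06).

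Of 12 regulators of TOP mRNAs, 3 fell and none rose in the edgeR test, with a median log2 fold change of -0.01, beside 16.5% lower and 17.3% higher among all genes tested. The count of 0 higher was also 0 at an unadjusted p under 0.05 and with DESeq2. CNBP, which binds TOP mRNAs, went from 248 ± 3.76 to 188 ± 11.3 CPM (log2 fold change -0.40, edgeR adjusted p = 8.51e-06), LARP1 from 284 ± 4.31 to 248 ± 8.01 CPM (-0.20, edgeR adjusted p = 0.00104) and EIF4EBP1, the mTOR target that holds back cap-dependent translation, from 139 ± 14.7 to 94.6 ± 5.66 CPM (-0.55, edgeR adjusted p = 1.83e-05). MTOR and RPTOR, at log2 fold changes of 0.03 and -0.00, did not pass. RPS6KB2, an S6 kinase, was at 0.13 (edgeR adjusted p = 0.122) and passed without the 25(OH)D library 3 (0.00929).

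Chaperones and importers guard ribosomal proteins and carry them to the nucleus. Of 12 genes listed for this, not all of them dedicated to it, 1 was higher and none lower in the edgeR test. The shares of all genes tested were again 17.3% higher and 16.5% lower. GRWD1, a chaperone of RPL3, had a log2 fold change of -0.16 that did not pass (edgeR adjusted p = 0.0875), but passed with the replicate block (0.0412), with library sizes alone (0.0359), with upper-quartile factors (0.0286), without the low-count filter (0.00746) and without the control library 3 (0.0157). The count of 0 lower was 2 at an unadjusted p under 0.05 and 0 with DESeq2. BCCIP, a chaperone of RPL23, rose from 236 ± 16.6 to 266 ± 13.1 CPM (log2 fold change 0.17, edgeR adjusted p = 0.0216). The call of BCCIP was lost without the control library 1 (0.0827) or 2 (0.0656), without the 25(OH)D library 1 (0.0506) or 3 (0.0577), with library sizes alone (0.0657), with upper-quartile factors (0.0867) and on log2(RPKM + 0.1) (0.139) and log2(RPKM + 1) (0.140). Of 5 ubiquitin ligases that act on ribosomes or free ribosomal proteins, HUWE1 rose from 609, 622 and 586 CPM to 1106, 1111 and 1148 CPM (log2 fold change 0.89 ± 0.0350, edgeR adjusted p = 1.03e-10). ZNF598, which marks collided ribosomes, fell from 105, 104 and 104 CPM to 79.3, 75.5 and 76.5 CPM (log2 fold change -0.44 ± 0.0436, edgeR adjusted p = 2.32e-06).

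Many ribosomal protein genes have processed pseudogenes or neighbours that overlap them, so the counts were repeated on members less exposed to shared reads. In 53 tested members that share no exon bases on their strand with another gene in the table, 38 fell and 1 rose, with a median log2 fold change of -0.21. Some of these members overlap genes on the other strand, such as RPL10 over 2543 bases. The strand setting of the counting is not given, so shared reads remain possible there. In 50 members with at most 10% of their 100-base stretches shared with other genes, a limit chosen after the data were seen, 35 fell and 1 rose, with a median of -0.22. The 32 members above that limit had 26 fallen and a median of -0.23. Of the 61 members that fell, 40 did so in every fit that left out 1 library, and 21 lost the call in at least 1 of these fits.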

How the data were processed

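The authors deposited counts per gene, whole numbers without normalization, and RPKM values, which equalled the count divided by gene length and library total (largest relative difference 2.23e-13). The submitters' processing notes name Trimmomatic 0.36, featureCounts, Subread 1.5.1, edgeR 3.12.1 and GRCh38. The aligner and the annotation release are not given in the sources used here. The library kit keeps strand, and the strand setting of the counting is not given. Some reads were counted in each of several overlapping genes, as the readthrough rows show. Of the rows with 1 to 20 counts, 66.0% to 68.0% held an even count, so both mates of a pair may have been counted.

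Counts were tested in R 4.3.3 with edgeR 4.0.16 (TMM, its filter at a minimum count of 10, then the quasi-likelihood F test between the 2 groups, without covariates). Benjamini-Hochberg adjustment was over the 18183 genes tested, and the biological coefficient of variation was 0.0788. The script was tested on simulated data. Alternatives were DESeq2 1.42.0, limma 3.58.1 on log2(RPKM + 1) and log2(RPKM + 0.1), and others given in the closing section. Principal transcripts and shared 100-base stretches came from GENCODE 29.

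The members, the gene lists, the tests and the rule for named genes were chosen with earlier results of these data known. The rule named the 10 largest rises and 10 largest falls among called members, the 5 highest by RPKM, the paralog pairs, RPLP0, RPLP1, RPLP2 and RPSA, per group or list the gene of smallest p each way, the members not tested, and FAU and RACK1. The levels per principal transcript, the 100-base stretches, the exact form of the start motif and the ratio to RPLP0 were defined after the files were seen. Some genes covered by the rule are not reported here. Other genes named are examples of their lists.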

Additional observations from a re-analysis of the deposited data

How the results depend on the processing

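Across 13 alternatives with all libraries, 57 to 67 members fell, 80 of the 82 had a fitted change under 0, and the median log2 fold change was -0.27 to -0.21, while the all-gene median stayed within 0.06 of 0. Leaving out 1 library gave 46 to 62 fallen members, 0 to 2 risen, 0 to 1 past a log2 fold change of 1, and medians of -0.26 to -0.19 (small subunit -0.28 to -0.19). With fewer members counted, 38 fell without those sharing exon bases on their strand and 35 without those sharing stretches. No member rose (0) with TMM factors without the members, library sizes alone, upper-quartile factors, the abundance or length trend removed, log2(RPKM + 0.1), log2(RPKM + 1) or no low-count filter. Without that filter 1 member, RPS10L, passed a log2 fold change of 1. The cause was not tested. The difference in paralog share was 4.91 to 6.65 percentage points for RPL36AL, 2.68 to 3.48 for RPL7L1, 0.0658 to 0.167 for RPL22L1, -0.428 to 0.536 for RPL26L1 and -0.196 to 1.16 for RPS27L when 1 library was left out, so the last 2 changed sign.

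Replicate numbers did not pair the samples, since the deviations of same-numbered libraries correlated at -0.07, -0.01 and -0.05. A replicate block gave 61 fallen and 1 risen member, 58 of the fallen the same genes, and a log2 ratio of the members' share of -0.30. Among the named genes, FAU changed sign with library sizes alone, with upper-quartile factors and on both RPKM scales, RPLP0 changed sign without the 25(OH)D library 3, and neither passed the test there. Depth limited RPL3L and RPL39L, at no more than 4 counts in a library.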

Other observations

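The table holds 447 further rows named as pseudogenes of 69 members. Together they took 0.0295% ± 0.000163 of all counts in control and 0.0247% ± 0.000475 with 25(OH)D (SD, n = 3 each), without overlap (exact permutation p = 0.1). Of the 76 tested, 8 fell and 1 rose at an edgeR adjusted p under 0.05, beside 16.5% and 17.3% of all genes tested, with a median log2 fold change of -0.26. RPL13AP5, read at 266, 256 and 272 counts in control and 160, 190 and 166 with 25(OH)D, had a log2 fold change of -0.49 ± 0.121, close to the -0.48 of RPL13A. RPL23AP82 had a log2 fold change of -0.40 ± 0.0596 and RPSAP58 one of 0.07 ± 0.0905, beside -0.22 for RPL23A and -0.08 for RPSA. The rows for readthrough transcripts across a member and its neighbour, RPL17-C18orf32 and RPS10-NUDT3, had log2 fold changes of -0.26 and -0.23. Reads shared between these rows and the members cannot be separated in a table of counts, and these rows were chosen after the data were seen.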
